A study of Danio rerio with 16 samples.

Results

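The heat shock genes hsp70l (ENSDARG00000055723) and hsp70.1 (ENSDARG00000029688) were read by their gene IDs in a table of 31388 gene IDs. Both rows were present, both passed the filter on low values, and they make up 2 of the 31388 IDs. The table covers 16 RNA-sequencing libraries, each made from cells of the zebrafish ventricular apex after sorting. All fish were adults of 3 to 9 months that carried postnb:citrine, a reporter driven from a periostin gene of activated fibroblasts, together with kdrl:mCherry, a reporter driven from a gene of endothelial and endocardial cells. Each library is 1 sort from 3 to 5 pooled hearts, and hearts were uninjured or had a cryoinjury, a local wound set by freezing. The groups were mCherry-positive cells of uninjured hearts (pools 2, 3 and 4), and 3 sorts of cells 7 days post injury (7 dpi): mCherry-positive (pools 5, 6, 7 and 9), citrine-positive (pools 7, 9 and 10) and double-negative (pools 5 to 10). The double-negative sort is every cell with neither reporter, so it is a mixture. Background strain and sex are not given by the labels, uninjured cells of the other sorts were not analysed here, and all hearts, controls included, were dissociated with trypsin before sorting.

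HSP70 proteins are ATP-driven chaperones that hold unfolded stretches of other proteins. J-domain proteins (the HSP40 or DNAJ family) deliver their clients and speed up ATP hydrolysis, nucleotide exchange factors such as the BAG proteins reset them, and HSP90 with its co-chaperones takes over some clients. The inducible members, among them hsp70l and hsp70.1, are switched on by heat shock factor when proteins unfold, while constitutive members such as HSPA8 serve unstressed cells and HSPA5 serves the endoplasmic reticulum. In zebrafish the hsp70l promoter is a common tool for heat-inducible transgenes. Heat shock and immediate early genes are also known to respond to the enzymatic dissociation of tissue, a step that all libraries here share.

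The libraries carried the markers of their sorts: kdrl lay between 159 and 467 TPM (a length-corrected share of all transcripts of a library, scaled to the same total in each) in mCherry-positive libraries and between 0.740 and 1.73 TPM in citrine-positive ones. It was between 24.0 and 57.0 TPM in double-negative libraries, so some endothelial RNA was present there. POSTN (ENSDARG00000104267), a periostin gene, was at 715, 932 and 1532 TPM in the citrine-positive libraries and at most 36.3 TPM in mCherry-positive ones. In double-negative libraries that ID was between 202 and 426 TPM. Another periostin ID of the same name (ENSDARG00000043806) did not separate the sorts. It was at 38.7, 196 and 382 TPM in citrine-positive pools 7, 9 and 10. In mCherry-positive libraries it was between 55.3 and 407 TPM, highest in pool 9. All 5 libraries of pools 9 and 10 stood apart in other genes too. In them si:dkeyp-3b12.11, with si:dkeyp-3b12.8, held between 25.7% and 35.8% of all TPM, against at most 2.09% in the other 11 libraries. The citrine-positive library of pool 7 had a summed level of 5224 TPM over the cardiomyocyte markers, against 358 and 413 TPM in citrine-positive pools 9 and 10. Read depth is unknown, since TPM keep no counts. In such bulk samples fewer cells of a type and less RNA per cell cannot be told apart.

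In mCherry-positive cells both genes were among the most abundant transcripts of the library, except in pool 9. In uninjured hearts hsp70l stood at 8557, 9003 and 5844 TPM in pools 2, 3 and 4. At 7 dpi it stood at 10941, 10671 and 8562 TPM in pools 5, 6 and 7, and at 121 TPM in pool 9. The same libraries gave hsp70.1 levels of 5453, 6383 and 4542 TPM when uninjured, of 8646, 7377 and 5006 TPM in pools 5, 6 and 7, and of 61.8 TPM in pool 9. So 6 of the 7 mCherry-positive libraries formed a high band, and pool 9 lay far under it for both genes. In that band hsp70l ranked between 12 and 16 among all IDs, and in mCherry-positive pool 9 it ranked 480. The pair made up as much as 1.96% of all TPM, in mCherry-positive pool 5.

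Double-negative libraries were intermediate. There hsp70l was at 620.0, 2345, 2201 and 1104 TPM in pools 5 to 8, and at 85.4 and 56.2 TPM in pools 9 and 10. The matching hsp70.1 levels were 546, 1908, 1385 and 609.5 TPM, then 40.95 and 20.6 TPM. Pools 9 and 10 were again the 2 lowest libraries of their sort for both genes. Citrine-positive libraries were low in every pool: hsp70l was at 137, 38.2 and 1.38 TPM in pools 7, 9 and 10, and hsp70.1 at 87.2, 15.8 and 2.60 TPM. The only citrine-positive library of pools 2 to 8, pool 7, was higher than both others, and it exceeded mCherry-positive pool 9 as well.

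**Figure D1:**
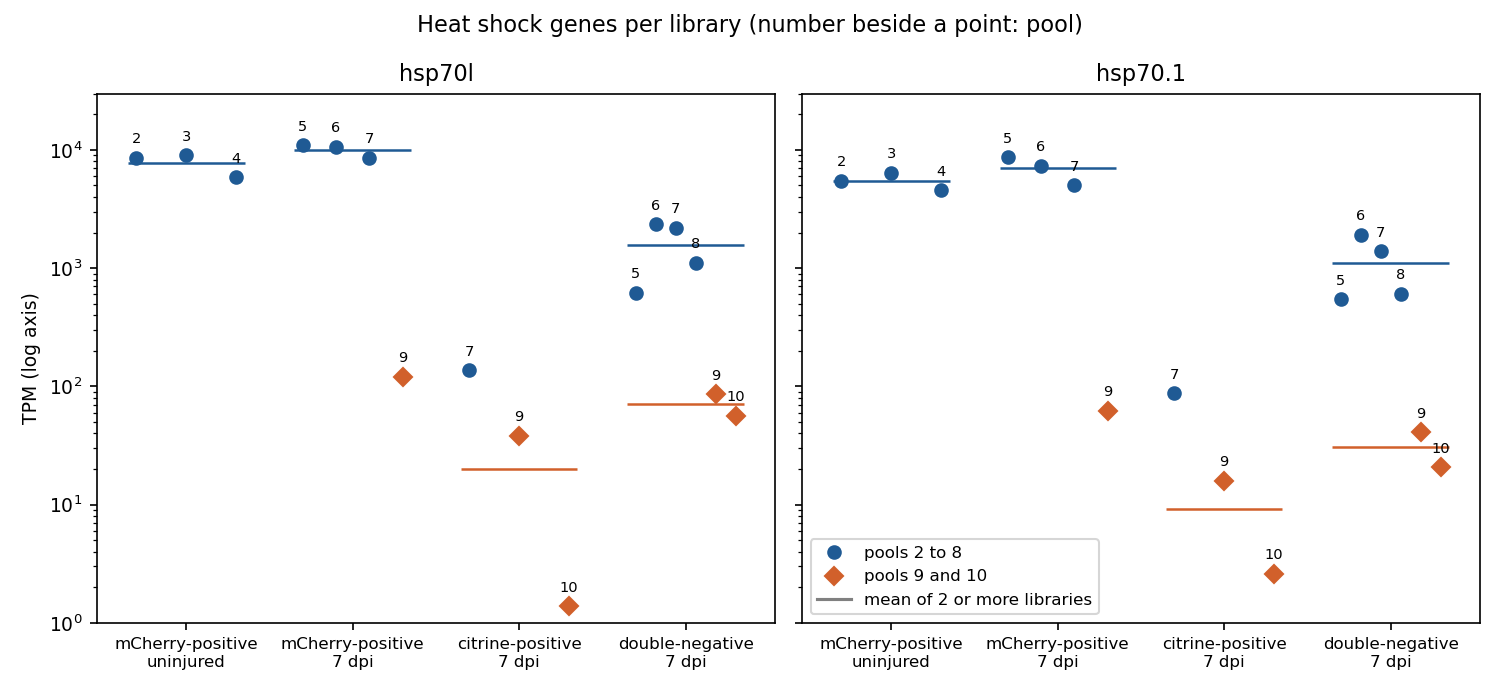
TPM of hsp70l (left) and hsp70.1 (right) in each library on a log axis, by group; circles are pools 2 to 8, diamonds pools 9 and 10, the number beside a point is its pool, and lines are means of 2 or more libraries. In every sort at 7 dpi the diamonds lie under the circles, and mCherry-positive pool 9 (121 and 61.8 TPM) lies under all double-negative libraries of pools 5 to 8.

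The 2 genes kept a similar ratio to each other. The level of hsp70l divided by that of hsp70.1 was between 1.13 and 1.81 in the libraries of pools 2 to 8. In pools 9 and 10 it was between 1.95 and 2.73, except in citrine-positive pool 10, where both were under 3 TPM and the ratio was 0.531. Another inducible gene, hsp70.3 (ENSDARG00000021924), which lies beside hsp70.1 in NCBI RefSeq's annotation of the assembly GRCz12tu, had lower levels than both in all libraries except citrine-positive pool 10. It was at 2793, 3405 and 3022 TPM in uninjured mCherry-positive cells, at 3027, 2386 and 1954 TPM at 7 dpi in pools 5 to 7, and at 57.4 TPM in pool 9. Inducible HSP70 genes are near-identical over much of their length, and shared reads were divided among them by estimate, so how the signal splits between these IDs is uncertain. An ID named HSPA2 (ENSDARG00000092362) reached 9374 TPM in mCherry-positive pool 5. Whether it shares reads with them was not tested. No other ID had the same values as either gene.

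The mean levels put a size on the gap between pools. Over mCherry-positive cells at 7 dpi, hsp70l had 10058 ± 1303 TPM in pools 5 to 7 (SD, n = 3) and 121 TPM in pool 9, a ratio of 83.4, and hsp70.1 had 7009 ± 1847 TPM and 61.8 TPM, a ratio of 113. For hsp70l in double-negative cells the means were 1568 ± 840.3 TPM (SD, n = 4) in pools 5 to 8 and 70.8 ± 20.7 TPM (SD, n = 2) in pools 9 and 10, a ratio of 22.1. The same ratio was 36.1 for hsp70.1. In citrine-positive cells, with 1 library against 2, the ratios were 6.91 and 9.46. Even the lowest library of pools 2 to 8 exceeded the highest library of pools 9 and 10 in each sort, by 71.0-fold, 7.26-fold and 3.58-fold for hsp70l in mCherry-positive, double-negative and citrine-positive cells. The share of all IDs with this order was not computed within sorts. Across all 16 libraries it was 0.945%, with both genes among them. This is a description, since the genes were put forward with their levels in pool 9 known.

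In a limma model with 1 mean per group and a term for the pool set, fitted over all 19039 tested IDs, the difference of pools 9 and 10 from pools 2 to 8 was −5.12 ± 0.48 (SE) for hsp70.1 and −4.74 ± 0.57 for hsp70l on the log2(TPM + 1) scale. These 2 values are given as a description with no test, since the genes were put forward with their levels in pool 9 known. Uninjured libraries add nothing to this term, because none is of pools 9 or 10. The term assumes 1 shift shared by all sorts, and the members did not show that. On the log2 scale, pools 2 to 8 exceeded pools 9 and 10 by 6.4, 3.8 and 4.3 for hsp70l in mCherry-positive, citrine-positive and double-negative cells. For hsp70.1 the values were 6.8, 3.5 and 5.0. Differences between groups given below with this term rest on that assumption. The pool sets were split with the levels of both genes in pool 9 known. For these 2 genes, p-values from fits with this term or within pools 2 to 8 are therefore a description too. Ordered by the pool set difference, hsp70.1 was number 3 and hsp70l number 10 of the 19039 IDs, counted from the most lowered. The others up to hsp70l, listed after their values were seen, were HSP90AA1 (ENSDARG00000024746, −5.29 ± 0.60), si:dkeyp-3b12.10 and 6 IDs with no name and equal values. What else pools 9 and 10 share, apart from the 2 abundant si:dkeyp-3b12 IDs, is not given by the labels, and the part of those IDs or of any other difference between the pools was not tested.

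Because mCherry-positive pool 9 belongs to the injured group, the comparison of injured with uninjured hearts depends on it. Over all libraries neither gene passed the test (limma with Benjamini-Hochberg adjustment over 19039 IDs; 0.693% of all IDs were called). The difference, 7 dpi minus uninjured, was −1.21 ± 1.56 (SE) for hsp70l (adjusted p = 0.824, unadjusted 0.449) and −1.35 ± 1.61 for hsp70.1 (adjusted p = 0.801, unadjusted 0.412). The groups overlapped, and the two-sided exact permutation test over 4 and 3 libraries gave p = 0.971 and p = 1.0, where 0.0571 is the smallest this design allows. Within pools 2 to 8 the sign turned for both: hsp70l was at 0.38 ± 0.54 (adjusted p = 0.836, exact permutation p = 0.2, smallest possible 0.1) and hsp70.1 at 0.34 ± 0.52 (adjusted p = 0.859, exact permutation p = 0.3). In that fit 0.604% of all IDs were called. The 95% intervals, not adjusted for the number of IDs, ran from −0.80 to 1.57 and from −0.81 to 1.49. Differences within these ranges are thus compatible with the 3 and 3 libraries, and the ranges are not limits of detection. With the pool set as a term, where 1.7% of all IDs were called, the differences were −0.02 ± 0.74 (adjusted p = 0.994) and −0.07 ± 0.62 (adjusted p = 0.978).

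Between sorts at 7 dpi, citrine-positive cells had the least of both transcripts and mCherry-positive cells the most. The difference, citrine-positive minus mCherry-positive, was −7.15 ± 1.56 for hsp70l (limma, adjusted p = 0.00404) and −6.92 ± 1.61 for hsp70.1 (adjusted p = 0.00679). Both genes passed, where 7.07% of all IDs were called lower. Even so the groups overlapped, since citrine-positive pool 7 lay above mCherry-positive pool 9. The exact permutation test on 3 and 4 libraries gave p = 0.114 for either gene (two-sided, smallest possible 0.0571). The calls needed the spread estimated from all groups: with these 2 groups alone the adjusted p was 0.0895 and 0.0893, and without citrine-positive pool 10 hsp70.1 was at −5.78 (adjusted p = 0.0516). With the pool as a block, over the 2 pools that hold both sorts, the differences were −3.79 and −3.86 and neither passed (adjusted p = 0.478 and 0.454). Within pools 2 to 8, where citrine-positive cells have 1 library that is assumed to vary like the others, the differences were −6.18 ± 0.76 (adjusted p = 0.00103) and −6.28 ± 0.74 (adjusted p = 8.67e-04), with 4.26% of all IDs called lower. With the pool set as a term they were −5.17 ± 0.76 (adjusted p = 1.45e-04) and −4.79 ± 0.65 (adjusted p = 5.38e-05), with 6.96% called lower.

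Citrine-positive against double-negative cells gave −4.44 ± 1.44 for hsp70l (limma, adjusted p = 0.0596, unadjusted 0.00625) and −4.12 ± 1.49 for hsp70.1 (adjusted p = 0.0955, unadjusted 0.0126), so neither was called over all libraries, where 9.85% of IDs were. The two-sided exact permutation test gave p = 0.0952 for either gene with 3 and 6 libraries, where 0.0238 is the smallest possible. Within pools 2 to 8 the citrine-positive arm is 1 library, pool 7, the one with the high cardiomyocyte sum, and its spread is assumed from the other groups. Both genes passed there, at −3.32 ± 0.73 (adjusted p = 0.0287) and −3.46 ± 0.71 (adjusted p = 0.0212), where 3.65% of all IDs were called lower. With the pool set as a term the differences were −2.86 ± 0.70 and −2.42 ± 0.59 and both passed (adjusted p = 0.0118 for each), where 8.72% of all IDs were called lower. Taking only the 3 pools that hold both sorts, with the pool as a block, the difference was −3.24 ± 0.67 for hsp70l (adjusted p = 0.0574) and −2.63 ± 0.51 for hsp70.1, which then passed (adjusted p = 0.0494). Leaving out single libraries also brought calls: hsp70l passed without citrine-positive pool 7 (adjusted p = 0.0353), without double-negative pool 9 (0.0378) and without double-negative pool 10 (0.0272), and hsp70.1 without double-negative pool 10 (0.0333). Without citrine-positive pool 10 the differences were −2.79 and −2.98, with adjusted p of 0.357 and 0.381.

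The excess of mCherry-positive over double-negative cells was 2.70 ± 1.32 for hsp70l and 2.80 ± 1.36 for hsp70.1 over all libraries and did not pass (limma, adjusted p = 0.223 for each, unadjusted 0.0544 and 0.0546; 10.9% of all IDs were called). The exact permutation p values were 0.190 and 0.2 with 4 and 6 libraries (two-sided, smallest possible 0.00952). Within pools 2 to 8 the libraries of the 2 sorts did not overlap for either gene, a pattern shown by 7.48% of all IDs. There the excess was 2.87 ± 0.50 for hsp70l (adjusted p = 0.00625) and 2.82 ± 0.49 for hsp70.1 (adjusted p = 0.00601), with 3.53% of all IDs called higher. The exact permutation p was 0.0571 for each, the smallest that 3 and 4 libraries can give. With the pool set as a term the excess was 2.31 ± 0.62 (adjusted p = 0.0181) and 2.37 ± 0.52 (adjusted p = 0.00511), with 4.95% called higher. Leaving out mCherry-positive pool 9 alone raised the excess to 4.29 (adjusted p = 0.0204) and 4.49 (adjusted p = 0.0175). Fits without mCherry-positive pool 9 drop a library whose low levels of both genes were known beforehand, so their p-values are a description. With the pool as a block, over the pools that hold both sorts, neither gene passed. The 3 comparisons between sorts share libraries, so their values are set side by side and not counted as separate evidence.

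**Figure D2:**
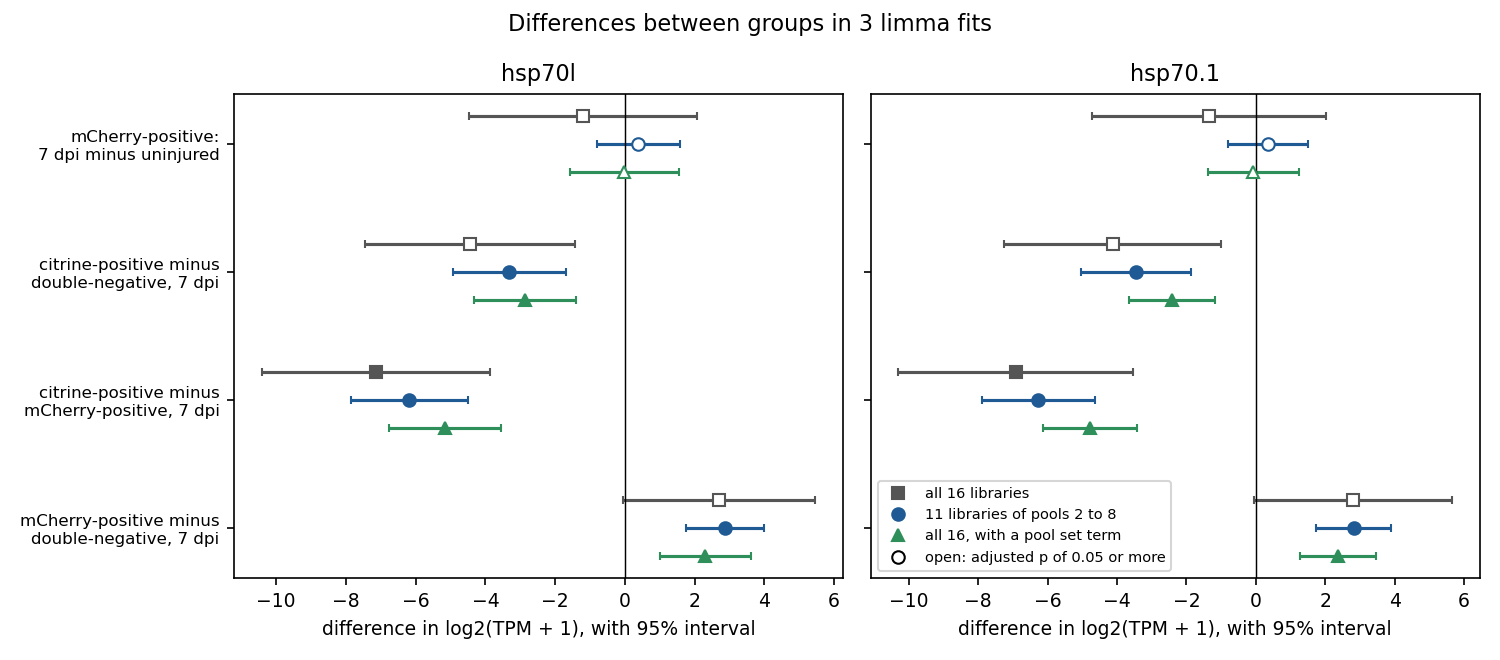
Differences between groups in log2(TPM + 1) for hsp70l (left) and hsp70.1 (right) with 95% intervals, from limma fits on all 16 libraries (squares), on the 11 libraries of pools 2 to 8 (circles) and on all 16 with a pool set term (triangles); filled symbols have an adjusted p under 0.05. The injury difference changes sign between the squares and the circles (−1.21 and 0.38 for hsp70l), and the intervals of the circles are shorter than those of the squares in every comparison.

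Sorts taken from the same pool number show how the gap between sorts varied from pool to pool. The ratio of mCherry-positive to double-negative hsp70l was 17.6 in pool 5, 4.55 in pool 6, 3.89 in pool 7 and 1.41 in pool 9. For hsp70.1 it was 15.8, 3.87, 3.62 and 1.51 in the same pools. The order of the 2 sorts was thus the same in all 4 pools, and the ratio was smallest in pool 9. Double-negative over citrine-positive hsp70l came to 16.1 in pool 7, 2.24 in pool 9 and 40.7 in pool 10, the last against a citrine-positive level of 1.38 TPM. Citrine-positive cells were the lowest sort in pools 7, 9 and 10, the pools in which they were collected.

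Other genes of the heat shock machinery were taken from lists of HSP70, HSP40, HSP90, small heat shock protein, chaperonin, co-chaperone and heat shock factor genes, 97 IDs beside the 2 members, of which 92 were tested. Between the pool sets 18 of the 92 (19.6%) were called lower in pools 9 and 10 and 0 higher, against 2.59% of all IDs called lower and 2.14% higher. At an unadjusted p under 0.05, limma gave 36 lower and 7 higher. After rescaling without the 2 si:dkeyp-3b12 IDs the split was 12 lower and 5 higher. In that setting 2697 of 19538 tested IDs were called, and 89.4% of those calls were higher. In the main fit the median difference was −0.42 over these 92 and 0.21 over all IDs tested. In 11 of the 92 (12%) every library of pools 9 and 10 lay below every other library, against 0.945% of all IDs. Of the 18 calls, 6 remained whichever of the 5 libraries of pools 9 and 10 was left out, and also under every other alternative run: hsp70.3, HSPA4 (ENSDARG00000004754), HSPA5 (ENSDARG00000103846), dnajb1b (ENSDARG00000041394), AHSA1 (ENSDARG00000100317) and BAG3 (ENSDARG00000039486). Without mCherry-positive pool 9 exactly 6 calls were left, without double-negative pool 9 there were 10, and without the citrine-positive libraries 9. Over all IDs the calls in these fits were 281, 438 and 414, against 902 in the main fit.

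Within the HSP70 list 7 of 15 other IDs were called lower in pools 9 and 10 and 8 did not pass. The ID named HSPA2 (ENSDARG00000092362), at −4.60 ± 0.51, is not in that list. The inducible hsp70.3 fell by 4.51 ± 0.43 (limma, adjusted p = 4.22e-05). HSPA4, named for a family of nucleotide exchange factors that restart the HSP70 cycle, fell by 3.57 ± 0.40 (adjusted p = 1.16e-04), from 603 TPM in mCherry-positive pool 6 to 11.7 TPM in pool 9, for example. This was ENSDARG00000004754, whereas another ID named HSPA4 (ENSDARG00000018989) was at −0.27 ± 0.27 (limma, adjusted p = 0.624). HSPA5, the HSP70 of the endoplasmic reticulum also called BiP, fell by 2.60 ± 0.27 (adjusted p = 7.16e-05). The constitutive HSPA8 (ENSDARG00000068992), the listed HSP70 ID beside the members with the highest mean over the 16 libraries although hsp70.3 exceeded it in 4 mCherry-positive libraries, was at −1.12 ± 0.33 and did not pass (adjusted p = 0.0607). Its levels were between 631 and 902 TPM in pools 9 and 10 and between 1171 and 3572 TPM in all other libraries. The 2 sets thus did not overlap, a pattern shown by 0.945% of all IDs. These levels were not rescaled without the 2 si:dkeyp-3b12 IDs, which held 25.7% to 35.8% of TPM in pools 9 and 10. Another ID named HSPA8 (ENSDARG00000037403) was at 1.56 ± 0.65 (limma, adjusted p = 0.181). HSPA12B (ENSDARG00000030307), a divergent member known from endothelial cells, was at 0.31 ± 0.33 (adjusted p = 0.646).

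Partner proteins also showed both large and small differences. The J-domain protein gene dnajb1b, an inducible partner of HSP70, was at 3278 and 2085 TPM in mCherry-positive pools 6 and 7 and at 71.7 TPM in pool 9. It fell by 3.61 ± 0.39 between the pool sets (adjusted p = 9.11e-05), one of 3 of 30 HSP40 IDs called. Among 23 co-chaperone IDs 5 were called lower, among them AHSA1, which activates the ATPase of HSP90 (−3.15 ± 0.39, adjusted p = 2.53e-04), and BAG3, a nucleotide exchange factor induced by stress (−1.76 ± 0.28, adjusted p = 0.00202). Another ID named AHSA1 (ENSDARG00000028664) was at −0.07 ± 0.38 (limma, adjusted p = 0.942). Of the small heat shock proteins HSPB1 (−1.60 ± 0.44, adjusted p = 0.0470) and HSPB8 (−1.46 ± 0.37, adjusted p = 0.0305) were called among 6 tested, and these calls were lost in 4 and 3 of the 5 fits that each left out 1 library of pools 9 and 10 (highest adjusted p 0.332 and 0.235). Among 4 HSP90 IDs 1 was called lower, hsp90aa1.1 (−2.16 ± 0.60, limma, adjusted p = 0.0480). Its call was lost in 4 of the 5 fits that each left out 1 library of pools 9 and 10 (highest adjusted p 0.165). The most abundant HSP90 ID of the lists, HSP90AB1, was at 0.14 ± 0.34 (adjusted p = 0.862). The ID named HSP90AA1, at −5.29 ± 0.60 and up to 5901 TPM in a library, is not in the lists and not among these 4. HSP90AB1 had 2474 TPM in mCherry-positive pool 9 against 1482 to 4413 TPM in pools 5 to 7. No chaperonin ID (0 of 10; most abundant CCT7, −0.53 ± 0.25, adjusted p = 0.238) and no heat shock factor or binding protein ID (0 of 4) was called by limma. At an unadjusted p under 0.05 there were 4 of these 10, all lower, and 1 of these 4, higher. Under median-of-ratios scaling 3 of the 10 chaperonin IDs and 8 of the 30 HSP40 IDs were called lower. With that scaling 1877 of all 19002 tested IDs were called in either direction, against 902 of 19039 in the main fit. The chaperonin list also holds HSPH1, an HSP110-type nucleotide exchange factor (−1.31 ± 0.51, adjusted p = 0.149).

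**Figure D3:**
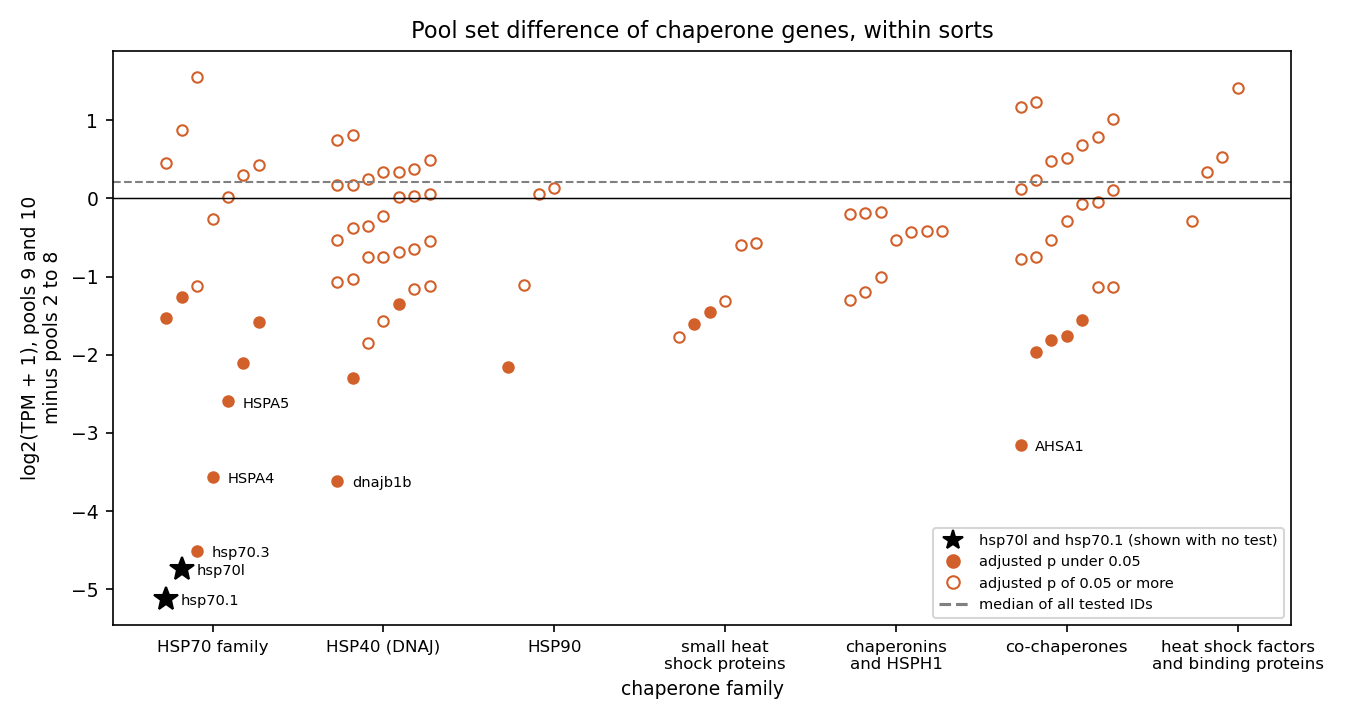
Difference in log2(TPM + 1) between pools 9 and 10 and pools 2 to 8, within sorts, for each tested ID of the chaperone lists, by family; filled circles passed the test, stars are hsp70l and hsp70.1 (no test), and the dashed line is the median of all tested IDs (0.21). The lowest points are hsp70.1 (−5.12), hsp70l (−4.74), hsp70.3 (−4.51), dnajb1b (−3.61), HSPA4 (−3.57) and AHSA1 (−3.15).

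Across sorts the shares of listed chaperones called were near those of all IDs or under them when all libraries were used. Citrine-positive against mCherry-positive cells had 9 of 92 called lower (9.78%) and 0 higher, where 7.07% of all IDs were called lower. Under median-of-ratios scaling there were 6 lower and 3 higher. Of the calls over all IDs, 61.8% were higher with that scaling and 40.7% in the main fit. Within pools 2 to 8, with 1 citrine-positive library, there were 7 lower and 5 higher, 3 of the latter among the 6 small heat shock protein IDs, where 4.26% of all IDs were called lower and 3.67% higher. The list median over all libraries was −0.66, and HSPA12B (−3.07 ± 0.43, adjusted p = 5.52e-05), BAG2 (−3.07 ± 0.47, adjusted p = 1.54e-04), dnajb1b (−5.07 ± 1.17, adjusted p = 0.00610) and BAG3 (−2.85 ± 0.63, adjusted p = 0.00456) stayed called whichever library was left out. The count was 18 without mCherry-positive pool 9 and 5 without mCherry-positive pool 5, mCherry-positive pool 6, citrine-positive pool 9 or citrine-positive pool 10. Over all IDs the fits that left out 1 library gave 1712 to 2657 calls in either direction. Mean levels of HSPA12B were 102 ± 39.7 TPM (SD, n = 4) in mCherry-positive cells at 7 dpi and 10.9 ± 2.49 TPM (n = 3) in citrine-positive ones.

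Against double-negative cells, mCherry-positive cells had 4 of 92 higher and 1 lower over all libraries, beside 4.06% of all IDs called higher. Those called higher were HSPA12B (2.18 ± 0.36, adjusted p = 6.35e-04), BAG2 (2.32 ± 0.40, adjusted p = 8.55e-04), BAG3 (2.16 ± 0.53, adjusted p = 0.0124) and HSPA12A (1.53 ± 0.45, adjusted p = 0.0331), and the lower one was hsc70, whose levels were at most 12.5 TPM in any library. The call of HSPA12A was lost in 6 of the 10 fits that left out 1 library (highest adjusted p 0.145) and that of BAG3 in 1, without mCherry-positive pool 5 (adjusted p = 0.0573). Within pools 2 to 8 there were 10 higher and 1 lower, where 3.53% of all IDs were called higher. Among them hsp70.3 was at 2.66 ± 0.44 (adjusted p = 0.00489), dnajb1b at 2.53 ± 0.44 (adjusted p = 0.00608), AHSA1 at 2.20 ± 0.46 (adjusted p = 0.0145) and HSPA4 at 1.97 ± 0.44 (adjusted p = 0.0190). Without mCherry-positive pool 9 alone 17 were higher and 2 lower, and without mCherry-positive pool 5 there were 2 and 1. Over all IDs the fits that left out 1 library gave 1472 to 2508 calls in either direction. Citrine-positive against double-negative cells had 3 of 92 called, all lower, beside 8.08% of all IDs: DNAJC5 (ENSDARG00000004836, −2.96 ± 0.64, adjusted p = 0.00447), hsc70 and DNAJA2 (ENSDARG00000104066). Under median-of-ratios scaling there were 3 lower and 2 higher, SERPINH1 and ST13. Of the calls over all IDs, 36.4% were higher with that scaling and 18.0% in the main fit. The calls of hsc70 and DNAJA2 were lost when some single libraries were left out, and with the pool as a block DNAJC5 was at −2.23 (adjusted p = 0.0744) and none of the 3 passed.

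With injury, 2 of 92 (2.17%) were called lower in mCherry-positive cells over all libraries, DNAJB5 (−2.37 ± 0.47, adjusted p = 0.0198) and DNAJB4 (−2.43 ± 0.56, adjusted p = 0.0477). Of all 19039 IDs 52 were called lower, and 0.693% were called in either direction. Neither chaperone call held whichever library was left out. Restricted to pools 2 to 8, the calls were different ones, 2 higher and 0 lower, beside 0.31% of all IDs called higher. HSPA5 was at 149, 193 and 172 TPM in uninjured pools 2, 3 and 4 and at 957, 743 and 463 TPM in pools 5, 6 and 7 at 7 dpi (a rise of 2.01 ± 0.38, adjusted p = 0.0471). DNAJB9 (ENSDARG00000016886), its J-domain partner in the endoplasmic reticulum, rose by 3.60 ± 0.61 (adjusted p = 0.0344), from at most 2.67 TPM to 11.3, 29.1 and 16.6 TPM. These 2 calls were not refitted with single libraries left out. Uninjured and injured hearts share no pool, so injury and pool cannot be told apart here. In mCherry-positive pool 9 HSPA5 was at 72.9 TPM, under all 3 uninjured libraries, and over all libraries its difference was 1.21 ± 0.84 (adjusted p = 0.622).

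**Figure D4:**
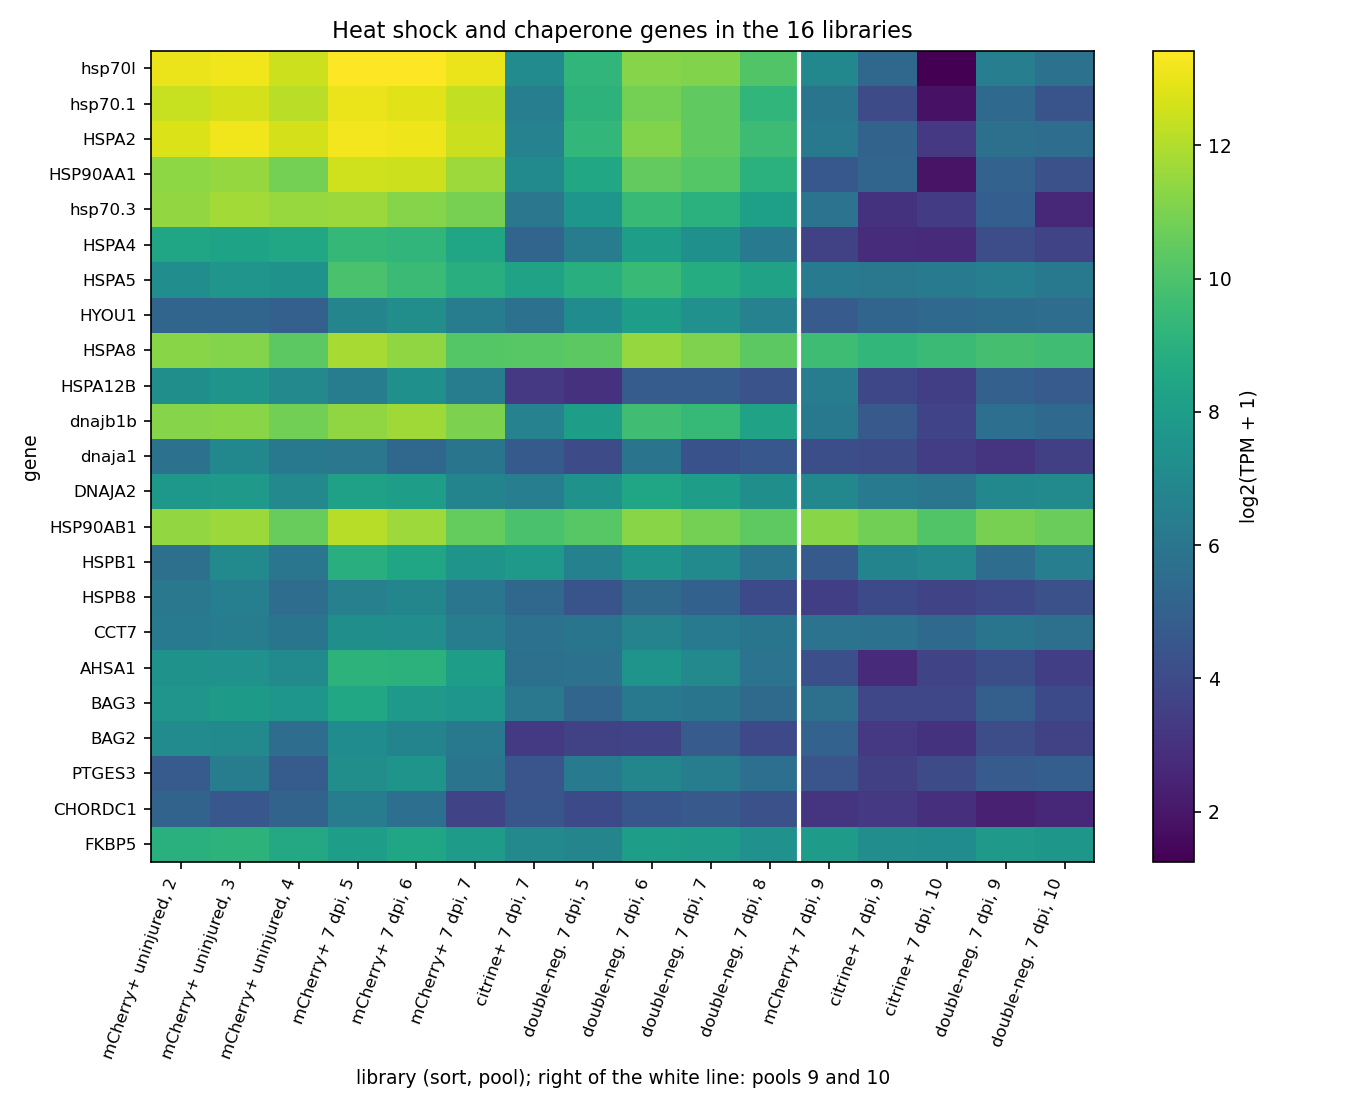
Levels as log2(TPM + 1) of hsp70l, hsp70.1 and 21 other chaperone and co-chaperone genes (down) in the 16 libraries (across, labelled by sort and pool). The white line separates pools 2 to 8 from pools 9 and 10. The 21 are a choice among the named chaperone genes. Not shown are hsc70, HSPA12A, DNAJB5, DNAJB4 and hsbp1b, with pool set differences of 0.02 to 1.41. DNAJC5, DNAJB9 and hsp90aa1.1, with −1.16 to −2.29, are not shown either. The upper lines, from hsp70l to hsp70.3, are darker right of the white line and in citrine-positive pool 7 than in the other columns, while HSP90AB1 and FKBP5 keep a similar shade across it.

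The genes whose levels followed hsp70l most closely over the 16 libraries were HSPA2 (ENSDARG00000092362, Pearson r = 0.986 of log2(TPM + 1)), dnajb1b (0.985), rsrp1 (0.981), HSP90AA1 (0.981) and AGFG1 (0.974), among 5046 named IDs that reach a mean of 20 TPM in a group. For hsp70.1 they were HSPA2 (0.996), dnajb1b (0.995), HSP90AA1 (0.987), rsrp1 (0.986) and HSPA4 (0.985). The libraries share pools and sorts, so r describes these 16 points and has no p. The 2 IDs that the name table calls HSPA2 and HSP90AA1 were not in the lists above. HSPA2 stood at 9374 TPM in mCherry-positive pool 5, 71.1 TPM in mCherry-positive pool 9 and 8.57 TPM in citrine-positive pool 10. HSP90AA1 stood at 5901, 23.2 and 2.73 TPM in the same libraries, beside 4413, 2474 and 1107 TPM of HSP90AB1. Over the 11 libraries of pools 2 to 8 alone the closest genes were pierce1 (0.994), PLK2 (0.992), HSPA2 (0.992), dnajb1b (0.991) and FOXC1 (0.986) for hsp70l. For hsp70.1 they were HSPA2 (0.998), PLK2 (0.997), pierce1 (0.994), KIF13B (0.991) and FOXC1 (0.991).

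Immediate early genes, transcription factors and regulators that switch on within minutes of a stimulus, were also followed as a list. The list holds other genes too, among them the ubiquitin genes ubb and ubc, so its sum is not of immediate early genes alone. The summed level of the list in mCherry-positive cells was between 22556 and 32676 TPM when uninjured. At 7 dpi it was 18834, 16611 and 12310 TPM in pools 5, 6 and 7. In pool 9 it was 11812 TPM, the lowest of the 7 libraries but close to pool 7, whereas hsp70l stood at 121 and 8562 TPM in pools 9 and 7. In double-negative cells it was between 4047 and 9317 TPM in pools 5 to 8 and at 8250 and 7234 TPM in pools 9 and 10. Between the pool sets 8 of 51 tested IDs were called lower and 6 higher, with a median of −0.01, beside 2.59% of all IDs called lower and 2.14% higher. Unfolded protein genes, which serve the endoplasmic reticulum and include HSPA5, HYOU1 and DNAJB9, had 8 of 25 called lower and 0 higher, against the same shares of all IDs (at an unadjusted p under 0.05 limma gave 14 lower and 0 higher). Of these 25, 21 had a negative difference, as did 37.3% of all IDs. Their summed level was between 1242 and 1561 TPM in pools 9 and 10 and between 1757 and 6305 TPM elsewhere. These sums, like the other sums here, are shares that were not rescaled without the 2 si:dkeyp-3b12 IDs. Those IDs held 25.7% to 35.8% of TPM in pools 9 and 10, so the order of the sums can depend on them. HSPA5, HYOU1, DNAJB9, HSP90B1 and dnajc3a also stand in the chaperone lists, so the calls of this list overlap with those counted above. Summed fibroblast and epicardial markers also differed in mCherry-positive pool 9, at 1568 TPM against 388 to 566 TPM in pools 5 to 7. In citrine-positive cells the same sum was 4671 and 6478 TPM in pools 9 and 10 against 2099 TPM in pool 7. In double-negative cells the erythroid sum was 1823 and 2067 TPM in pools 9 and 10 against 3919 to 22321 TPM in pools 5 to 8, and the neutrophil sum 78.9 and 128 TPM against 224 to 728 TPM. The part of these markers in the low heat shock levels was not tested.

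**Figure D5:**
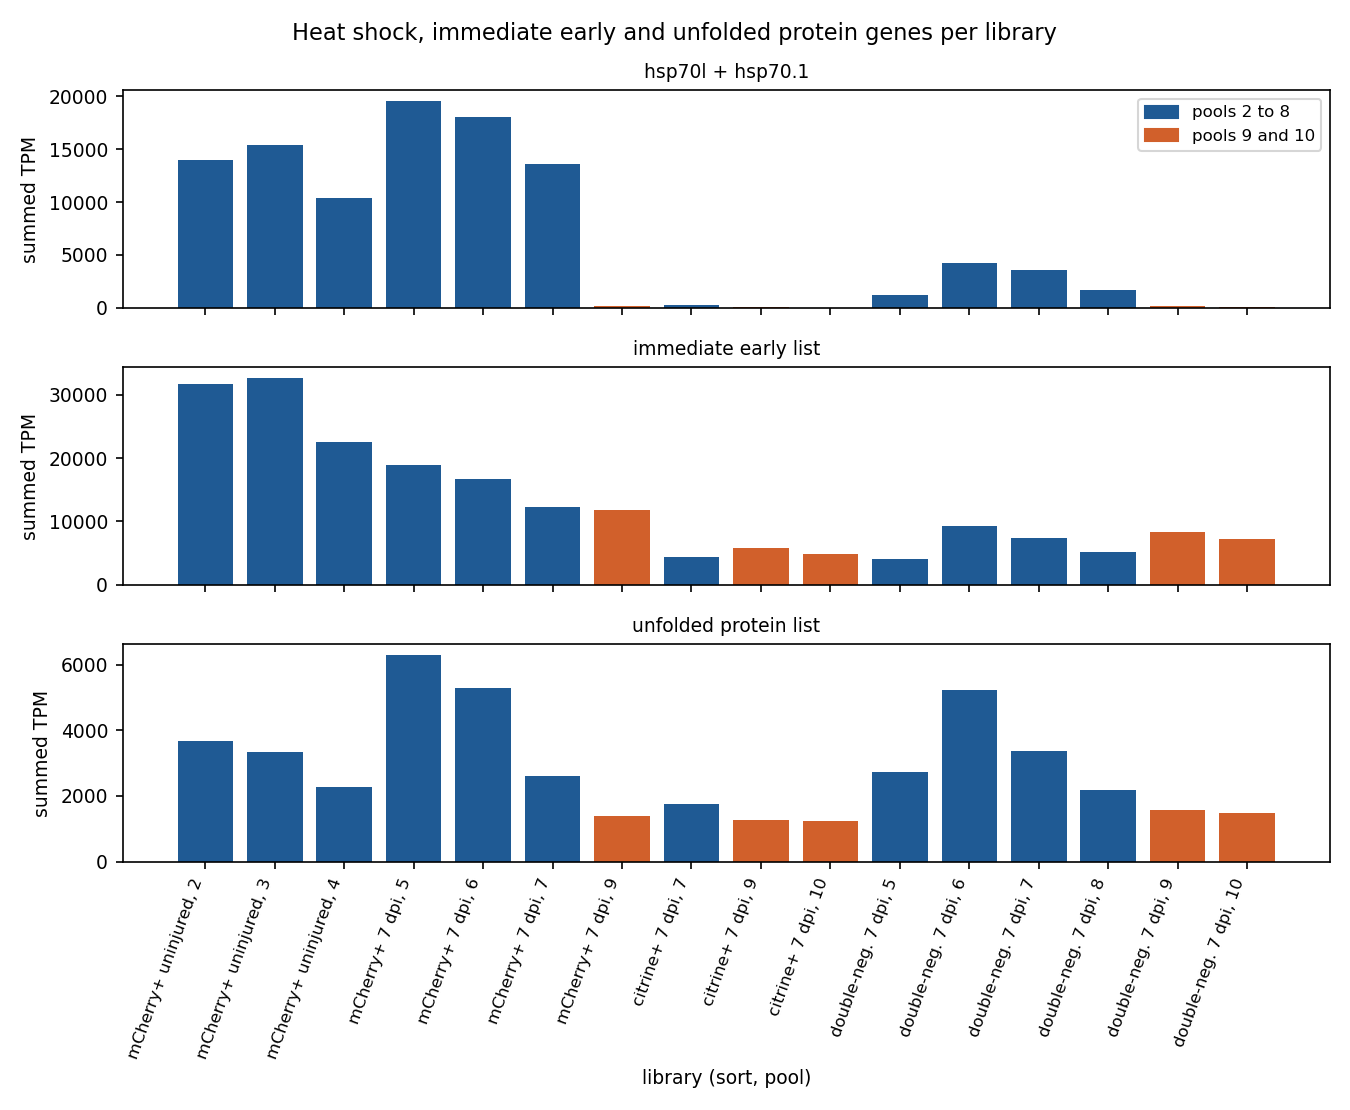
Summed TPM per library of hsp70l and hsp70.1 (top), of the immediate early list (middle) and of the unfolded protein list (bottom); blue bars are pools 2 to 8 and orange bars pools 9 and 10, and each panel has its own axis from 0. The orange bars are barely visible in the top panel, within the range of the blue bars in the middle panel, and under all blue bars in the bottom panel. The sums were not rescaled without the 2 si:dkeyp-3b12 IDs, which held 25.7% to 35.8% of TPM in pools 9 and 10.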

How the data were processed

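The authors deposited 1 table of 31388 Ensembl gene IDs by 16 libraries. The file names no unit; its columns all have the same total (at least 999999), so the deposited values were read as TPM. RSEM 1.2.25, which divides the reads of near-identical genes by estimate, is among the tools in the submitters' processing notes, beside CASAVA 1.8.2 and cutadapt, with Zv9 as build. Which annotation release served is not given in the sources used here. Library making began from 0.2 to 0.6 ng of RNA, per the labels' protocols, and used NuGEN's Ovation kit for single cells; a TruSeq kit is named too. Single reads had 60 bases. Low input adds spread between libraries. TPM are shares, so an abundant transcript lowers all others, and depth and detection limits are unknown.

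The 19039 IDs that reached 1 TPM in 3 or more libraries were tested with limma 3.58.1 (trend, R 4.3.3) on log2(TPM + 1), a scale that understates changes of low genes, with 1 mean per group and Benjamini-Hochberg adjustment over all tested IDs; called means an adjusted p under 0.05. The code was checked on simulated data. Exact permutation tests and summaries used Python 3.11.15 with scipy 1.17.1. The pool number was read as the hearts a library came from, which the labels do not spell out. Citrine-positive and double-negative libraries of the same pool deviated together from their group means (r of 0.163, 0.227 and 0.190 in pools 7, 9 and 10). For this reason a fit with the pool as a block is given beside the main one. The main fit and the exact permutation tests do not use the pairing. Labels do not say more on independence. The limma p-values are set against the spread between libraries within groups, pooled over the groups in a fit.

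Both members and all lists were chosen with earlier results of these data known, the pool set included. Among the listed chaperone and co-chaperone symbols 11 had no match, and names in capitals come from the name table, where 1 symbol can belong to several IDs. Named genes were the members, up to 4 called IDs per family and comparison by smallest adjusted p, the most abundant ID per family, and the 5 genes most like each member. HSPA2 and HSP90AA1 were named by the last part.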

Additional observations from a re-analysis of the deposited data

Results flagged for a closer look

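For 29 genes, groups of 4 or more libraries were checked for a library far from the others on the log2(TPM + 1) scale. Of 58 groups 7 held one, where chance flags about 1 in 20 groups. The genes were picked with their values known. The members were picked for their levels in pool 9, and listed chaperone IDs for a call in a comparison or as the most abundant of a family. Genes named only for likeness to the members were not checked. The count of 7 is thus a description and is not read against that rate. In mCherry-positive cells at 7 dpi, pool 9 was the far low library for hsp70l (120.55 TPM), hsp70.1 (61.79 TPM), hsp70.3 (57.4 TPM), HSPA4 (11.67 TPM) and dnajb1b (71.67 TPM). On the linear TPM scale the gap of pool 9 was a smaller part of the range for these 5 genes and would not have stood out. HSPA12B, which is not one of those 5, stood out in the same group through a high library, pool 6 (161.91 TPM). In double-negative cells HSPA12B had a far low library, pool 5 (7.03 TPM). The causes were not tested.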

How the results depend on the processing

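The injury difference of the members kept its sign in all alternatives except those without mCherry-positive pool 9, where it was 0.38 for hsp70l and 0.34 for hsp70.1 (the fit within pools 2 to 8 and the one leaving out that library). Leaving out each library in turn gave −1.78 to 0.38 and −2.03 to 0.34, 83 to 205 genes called and 0 to 4 chaperones called. The 132 genes called became 86 with a pseudocount of 5 TPM, 0 with the 2 groups alone and 324 with the pool set term. The 2 chaperones became 1 with that pseudocount, with no filter, with a 5 TPM filter and with either rescaling, 0 with the 2 groups alone and 6 with the pool set term.

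Citrine-positive against double-negative cells gained a call of hsp70l (−4.32) after rescaling without the 2 si:dkeyp-3b12 IDs, of both members within pools 2 to 8 (−3.32 and −3.46) and with the pool set term (−2.86 and −2.42). Leaving out single libraries gave −5.72 to −2.79 and −5.29 to −2.98, with 1285 to 1905 genes and 1 to 4 chaperones called. Genes called went from 1876 to 896 within pools 2 to 8, and chaperones from 3 to 5 under median-of-ratios scaling, 1 after the rescaling and 1 within pools 2 to 8.

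Against mCherry-positive cells, citrine-positive cells lost both calls with the 2 groups alone (−7.15 and −6.92). Left-out libraries gave −8.74 to −5.50 and −8.61 to −5.78, 1712 to 2657 genes and 5 to 18 chaperones. The 2268 genes became 1082 with the 2 groups alone and 1510 within pools 2 to 8, and the 9 chaperones became 5 with no filter and 2 with the 2 groups alone.

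For mCherry-positive against double-negative cells the members passed within pools 2 to 8 (2.87 and 2.82) and with the pool set term (2.31 and 2.37). Left-out libraries gave 2.07 to 4.29 and 2.03 to 4.49, 1472 to 2508 genes and 3 to 19 chaperones. The 5 chaperones became 11 and 12 in those fits.

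With the pool number as a replicate block, citrine-positive minus double-negative cells had −2.63 for hsp70.1 (called), 934 genes and 0 chaperones. Citrine-positive minus mCherry-positive cells, with 2 pairs (r of 0.0651 and 0.181), had −3.79 and −3.86, 0 genes and 0 chaperones called. For mCherry-positive against double-negative cells (r of 0.0471, 0.146, 0.0181 and 0.368) the block left neither member called, with 607 genes and 2 chaperones called. No paired analysis was possible for injury because the groups share no pool.

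Between the pool sets the members lay between −5.19 and −4.14 and between −5.44 and −4.51 whichever library was left out, with 281 to 648 genes and 6 to 17 chaperones called. The 902 genes became 281 without mCherry-positive pool 9, 438 and 449 without double-negative pools 9 and 10, 1877 under median-of-ratios scaling, 2697 after the rescaling and 414 without citrine-positive libraries. The 18 chaperones became 30 under median-of-ratios scaling and 9 without citrine-positive libraries. The alternative without citrine-positive libraries was chosen after seeing the data.

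Scaling moved the median of all genes by 0.20, 0.33 and −0.15 (median of ratios: citrine-positive against double-negative, against mCherry-positive, and mCherry-positive against double-negative) and by 0.13, 0.17 and 0.36 (rescaling: the first 2 and the pool set). The share of calls that were higher went from 60.6% to 71.3% with injury under either scaling and to 37.2% with the larger pseudocount, from 18.0% to 36.4% and from 40.7% to 61.8% in the citrine-positive comparisons under median of ratios, and from 45.2% to 89.4% between pool sets after the rescaling. The cause of these shifts was not tested. Depth is unknown, so low levels such as those of citrine-positive pool 10 carry no detection limit.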
